A study of Mus musculus with 18 samples.

Results

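The genes described here are 9 B-lineage genes, Cd79a, Cd79b, Cd22, Ms4a1, Vpreb1, Igll1, Rag1, Ebf1 and Pax5, taken as a given list and found by symbol among 49184 annotated genes with a listed transcript. All 9 were measured in each of 18 RNA-seq libraries of mouse knee cartilage, and all 9 passed the filter on low counts. The libraries came from male C57bl6 mice, 12 weeks old when assigned to groups. In all but the naive mice the anterior cruciate ligament (ACL) of the right knee had been ruptured by a single mechanical load. The libraries addressed how gene expression in the joint changed after this injury. The 5 groups were injured right knees at day 1 (3 libraries), injured right knees at day 7 (3), the uninjured contralateral left knees at day 1 (3) and day 7 (3), and knees of naive mice taken with the day 7 series (6). Each library was a pool of femoral condyle cartilage caps, parted from the bone beneath them, from several mice, the contralateral libraries came from the injured animals, and the naive libraries included left and right knees of the same mice. The sources did not agree on the number of mice per pool, and libraries that share mice could not be matched. Library depth, as the sum of estimated counts, lay between 16074762 and 41794005 (median 25465706).

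B cells develop in bone marrow in ordered steps. The transcription factors Ebf1 and Pax5 start and hold the B-cell programme, Rag1 cuts the immunoglobulin genes so that they can be rearranged, and Vpreb1 and Igll1 form the surrogate light chain of the pre-B-cell receptor, which is shut off as cells mature. Cd79a and Cd79b are the signalling chains of the receptor at every later step, whereas Ms4a1, which encodes CD20, and Cd22, an inhibitory co-receptor, are highest on mature B cells. Ebf1 is not restricted to B cells and is also expressed by adipocyte progenitors, pericytes and marrow stromal cells.

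The labels give the cell type of every library as chondrocyte. Chondrocyte markers were present, with a summed level of 12 markers of 1134 transcripts per 1000000 (TPM, a level per transcript length) as the median of naive libraries, led by Prg4, which encodes lubricin. Markers of marrow cells were present as well and at far higher levels. The 13 erythroid genes found summed to a naive median of 38238 TPM, led by the globin gene Hbb-bs, and 16 neutrophil and marrow myeloid genes summed to 11310 TPM, led by S100a8. On the same scale the 9 B-lineage genes summed to 67.7 TPM. In such bulk RNA, fewer cells of a type and less RNA per cell cannot be told apart.

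One library stood apart. In replicate 1 of the day 7 contralateral knees the 10 most abundant genes held 42.5% of the counts, against 16.6% to 29.8% in the other libraries, and its scaling factor from the trimmed mean of M-values (TMM), which corrects library totals for composition, was 0.696. Changes of the 9 genes in injured against contralateral knees at day 7 are therefore given with and without it.

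The order of levels among the 9 genes was read from TPM. In naive knees Cd79b was the highest, with a median of 22.1 TPM, followed by Cd79a at 9.79, Ebf1 at 8.17 and Pax5 at 6.07 TPM. Ms4a1 (4.29 TPM), Igll1 (4.19), Cd22 (4.11), Rag1 (3.90) and Vpreb1 (3.07) followed closely. Cd79b was above the other genes beyond the spread of the naive libraries (13.2 to 26.2 TPM, against at most 12.96 TPM for any other member), whereas each later neighbour in the order overlapped with the next. Levels of single genes are given below, unless named as TPM, as TMM-scaled counts per 1000000 (CPM), which compare libraries for 1 gene.

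Among naive libraries the extremes were often shared between members. Replicate 4 was the lowest naive library for 8 of the 9 genes, and replicate 6 was the highest for 6 of them. Replicate 1 of the injured knees at day 1 was the lowest of its group for 8 of 9 genes, whereas the library that stood apart was the lowest of its group for 6 and the highest for 3. The spread was smallest for Ebf1, with a coefficient of variation over naive libraries of 10.7%, and largest for Vpreb1, with 48.7%.

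**Figure D1:**
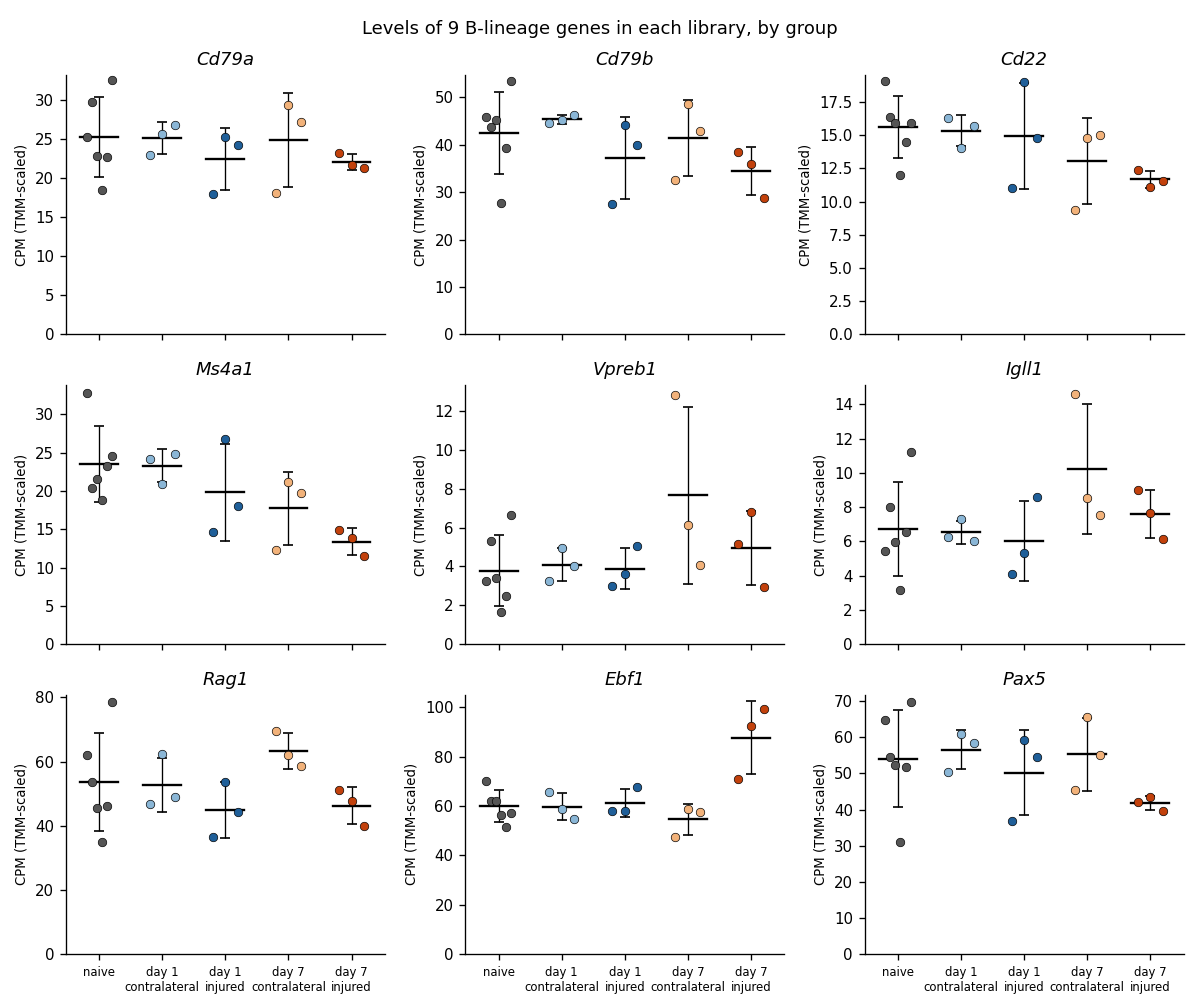
Level of each of the 9 genes in every library (y axes, CPM after TMM scaling, from 0), by group (x axis). Points are libraries, thick lines are group means and error bars are 1 SD; the 3 day 7 injured libraries lie below all naive libraries for Ms4a1 and above all libraries of every other group for Ebf1.

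Ms4a1, the gene for CD20, was lower in injured knees at day 7 than in naive knees. Its level was 14.9, 13.8 and 11.5 CPM in the 3 injured libraries, and 32.8, 20.3, 21.5, 18.9, 23.3 and 24.5 CPM in the 6 naive libraries. Every injured library was below every naive library, with means of 13.4 ± 1.75 (SD, n = 3) and 23.6 ± 4.95 CPM (SD, n = 6). How many of all genes separate in this way was not counted, here or for the genes below. The log2 fold change was -0.80 ± 0.19 (SE), a 1.74-fold lower level, with a false discovery rate (FDR, the Benjamini-Hochberg adjusted p over all genes) of 0.00616 in edgeR's quasi-likelihood test. A gene was called when its FDR was at most 0.05 and its change at least 1.5-fold, and Ms4a1 was the only one of the 9 called in this comparison. Of 21129 genes tested, 6.11% were called lower and 10.4% higher, so 1 of 9 lower and 0 of 9 higher was not far from the share among all genes.

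In the contralateral knees at day 7 Ms4a1 was at 12.3, 21.2 and 19.7 CPM. The first of these, the library that stood apart, was within the range of the injured knees, and the other two were within the naive range. Against these knees the log2 fold change of Ms4a1 in injured knees was -0.41 ± 0.24 (SE, FDR 0.248 by edgeR), which did not pass, and it was -0.59 (FDR 0.0963) without that library. In contralateral against naive knees at day 7 Ms4a1 changed by -0.40 ± 0.20 on the log2 scale (edgeR FDR 0.359). This was -0.21 (edgeR FDR 0.946) without that library, and neither value passed. At day 1 the injured knees held 14.6, 26.8 and 18.03 CPM and the contralateral knees 24.2, 20.9 and 24.9 CPM, and the difference of -0.24 ± 0.21 on the log2 scale did not pass (edgeR FDR 0.858). From day 1 to day 7 in injured knees Ms4a1 changed by -0.55 ± 0.22 on the log2 scale (edgeR FDR 0.0760), short of the threshold. In that comparison 9.04% of genes were called higher and 6.38% lower, and 0 of the 9. The value of Ms4a1 moved with single day 1 injured libraries, to -0.74 (edgeR FDR 0.0286) without replicate 1 and to -0.28 (edgeR FDR 0.347) without replicate 2. For Ms4a1 the injury effect at day 7 minus that at day 1 was -0.18 ± 0.33 on the log2 scale (edgeR FDR 0.833). Without the library that stood apart it was -0.35 (edgeR FDR 0.602), and neither value passed.

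Cd22, the other gene of mature B cells, was at 12.4, 11.1 and 11.6 CPM in injured knees at day 7. The naive libraries ranged from 12.0 to 19.1 CPM with a median of 15.9 CPM, so that only the lowest naive library, replicate 4, was within reach of the injured ones. Its log2 fold change of -0.40 ± 0.16 (SE) missed the threshold (edgeR FDR 0.0664). Against the contralateral knees, at 9.35, 14.8 and 15.04 CPM, it was -0.17 ± 0.20 (edgeR FDR 0.611), and -0.33 (edgeR FDR 0.268) without the first of these, the library that stood apart.

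Ebf1, the transcription factor, went the other way. It was at 71.0, 92.5 and 99.3 CPM in the 3 injured libraries at day 7, and at 47.4, 58.7 and 57.5 CPM in the contralateral knees of that day. The naive libraries ranged from 51.6 to 70.3 CPM with a median of 59.4 CPM. All 3 day 7 injured libraries were above all 15 others on this scale, a separation that was likewise not counted over all genes. Against the contralateral knees Ebf1 was 1.60-fold higher, with a log2 fold change of 0.68 ± 0.13 (SE, FDR 0.00154 by edgeR). It was the only one of the 9 genes called in this comparison, in which 9.33% of 21262 genes were called higher and 3.23% lower. Without the contralateral library that stood apart it was 0.61 (edgeR FDR 0.00532) and still called.

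Against naive knees the log2 fold change of Ebf1 was 0.57 ± 0.11 (SE), a 1.48-fold higher level that passed the FDR (0.00104 by edgeR) and fell just under the fold limit. By the FDR alone 18.7% of genes were higher in this comparison. From day 1 to day 7 in injured knees it was 0.54 ± 0.13 (edgeR FDR 0.00682), likewise under the fold limit, where 16.2% of genes were higher by the FDR alone. At day 1 Ebf1 was at 57.9, 57.8 and 67.6 CPM in injured and 65.6, 58.9 and 54.9 CPM in contralateral knees, and both groups overlapped. The injury effect at day 7 minus that at day 1 was 0.65 ± 0.19 on the log2 scale for Ebf1, with an edgeR FDR of 0.0665. This was not called, in a comparison that called 3.53% of genes higher and 0.245% lower. It was called by DESeq2 (0.63, FDR 0.0334) and without replicate 1 of the day 7 injured knees (0.78, edgeR FDR 0.0167).

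The call on Ebf1 against contralateral knees held in 21 of 24 alternatives. It was lost with the length correction, with library totals alone and without 1 library. The TPM of Ebf1, which carries no TMM scaling, was 7.14, 10.5 and 12.1 in the day 7 injured libraries and 6.92 to 11.1 in naive libraries, which overlap. Without replicate 3 of the injured knees the change against the contralateral side was 0.58 (edgeR FDR 0.0133), under the fold limit, and with offsets for transcript length it was 0.36 (edgeR FDR 0.150). With library totals alone the change of Ebf1 was 0.25 against naive knees (edgeR FDR 0.0911) and 0.09 from day 1 to day 7 (edgeR FDR 0.610), a scaling under which the median of all genes was -0.35 and -0.45. Relative to these medians Ebf1 was about as far above other genes as with TMM scaling. Against contralateral knees the same scaling ended the call, with a median of all genes of -0.19. Of its counts, 63.5% were assigned to the transcript Ebf1-201.

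**Figure D2:**
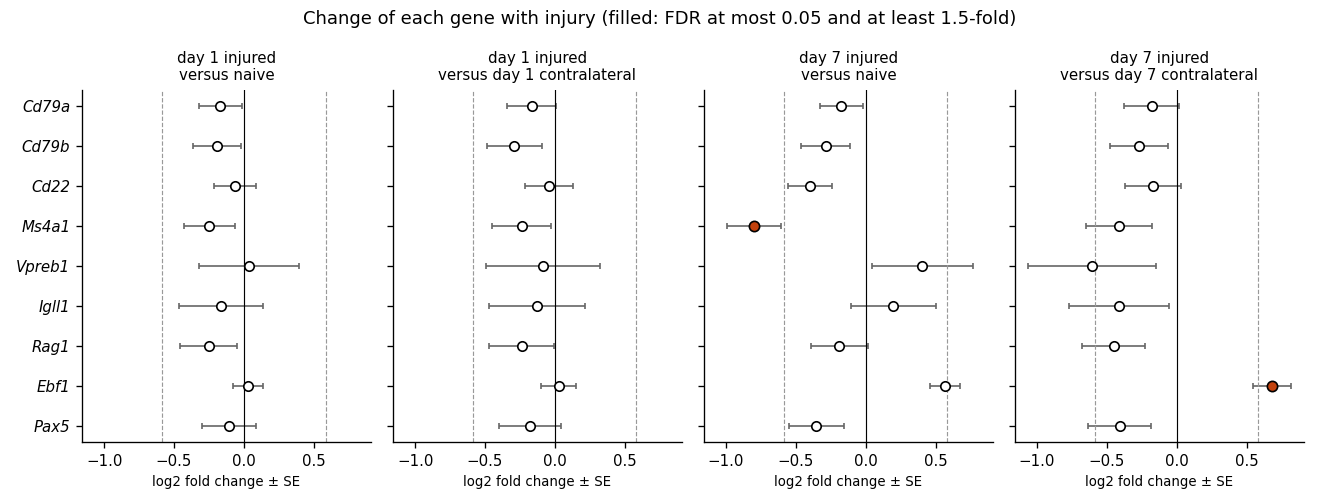
Log2 fold change of each of the 9 genes (x axes, with bars of 1 SE) in the injured knees of day 1 and day 7, against naive and against contralateral knees. Dashed lines mark 1.5-fold and filled points are called; these are Ms4a1 (-0.80) against naive knees and Ebf1 (0.68) against contralateral knees, both at day 7.

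The other Ebf genes were read beside Ebf1. Ebf2, a family member known from brown adipocyte and stromal progenitors, was at 12.8, 12.5 and 15.4 CPM in injured knees at day 7 and between 3.06 and 9.49 CPM in naive knees. It was called higher against naive knees (log2 fold change 1.25 ± 0.29, edgeR FDR 0.00425) and against the contralateral knees (1.38 ± 0.34, edgeR FDR 0.00796). Ebf3 and Ebf4 were not called in either comparison, with log2 changes of 0.27 and 0.63 against naive knees. All 4 family members had values above 0 in both comparisons. Markers of other cells moved in the same libraries. At day 7 against naive knees 7 of 10 fibroblast markers, 5 of 9 endothelial markers and 3 of 10 marrow stroma and pericyte markers were called higher, and the fibroblast markers summed to a median of 6231 TPM against 1277 TPM, led by Col1a1. Adipocyte genes went the other way, with 5 of 10 called lower and 0 higher (median -1.27). Over all genes 10.4% were called higher and 6.11% lower. The part of these markers in the level of Ebf1 was not tested.

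EBF proteins bind a palindrome, TCCC and GGGA with any 2 bases between, and a related site, CAAGGGAAT, is known from the Cd79a promoter. Both were searched on both strands in RefSeq promoters (GRCm38.p6, 250 bases before to 50 after each start), which were found for 7 of the 9 genes. The first was in 0.904% and the second in 0.244% of 32851 promoters. Each was found in 1 member, and both windows are shown, 5′ to 3′, because these genes are described beside Ebf1, with the match in capitals:
Cd22, chr7:30879058-30879087, minus strand: tcctgcaagaTCCCTGGGGActcacacaga
Cd79a, chr7:24897313-24897342, plus strand: gagagagactCAAGGGAATtgtggccagcc
The match lay 49 to 40 bases before the RefSeq start of Cd22 and 174 to 166 bases before that of Cd79a. In GENCODE the 5′ end of Cd22 is farther upstream, at base 30880342, so that the match in Cd22 lies within the gene as counted here. That of Cd79a, at base 24897381, is also upstream of its RefSeq start. The match in Cd79a lies before this end, and closer to it than to the RefSeq start. A match is a description of the sequence only, and that in Cd79a was fixed in advance, since the site is known from this promoter. Across the 18 libraries Pearson's r of log2 levels with Ebf1 was -0.12 for Cd22 and -0.06 for Cd79a, and with each group centred on its mean it was 0.41 and 0.25.

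Pax5, which acts downstream of Ebf1 and keeps B cells committed, was at 41.96, 43.6 and 39.7 CPM in injured knees at day 7. It was at 45.3, 65.5 and 54.98 CPM in the contralateral knees and between 31.02 and 69.9 CPM in naive knees, with a median of 53.5 CPM. The injured libraries were thus below every contralateral one and within the naive range. Neither change passed, at -0.41 ± 0.23 (edgeR FDR 0.238) and -0.35 ± 0.20 (edgeR FDR 0.193) on the log2 scale. Without the library that stood apart the change against contralateral knees was -0.51 (edgeR FDR 0.180). Across the alternatives the change of Pax5 ranged from -0.59 to -0.09 against contralateral knees. Against naive knees it ranged from -0.67 to -0.01, and it was called in 1 of 22 alternatives.

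Rag1, the recombinase, showed a like pattern at day 7. It was at 51.2, 47.8 and 39.9 CPM in injured and 69.4, 61.9 and 58.6 CPM in contralateral knees, which did not overlap, with a log2 fold change of -0.45 ± 0.22 (edgeR FDR 0.181), and -0.36 (edgeR FDR 0.380) without the library that stood apart. The naive libraries, at 34.97 to 78.7 CPM with a median of 49.96 CPM, spanned both groups, and the change against them was -0.19 ± 0.20 (edgeR FDR 0.507). Rag1 lies wholly within B230118H07Rik on the same strand, so some of its reads may belong to that gene.

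The receptor chains did not pass either. Cd79a was at 23.2, 21.7 and 21.3 CPM in injured knees at day 7 against a naive range of 18.5 to 32.5 CPM with a median of 24.1 CPM. Cd79b was at 38.5, 36.1 and 28.9 CPM against a naive range of 27.6 to 53.5 CPM with a median of 44.5 CPM. Both sets of injured libraries were inside the naive range, and the log2 fold changes were -0.17 ± 0.15 (edgeR FDR 0.416) and -0.29 ± 0.18 (edgeR FDR 0.238). Against contralateral knees the log2 fold change was -0.18 for Cd79a and -0.27 for Cd79b (edgeR FDR 0.588 and 0.412), and -0.33 and -0.39 (edgeR FDR 0.263 and 0.255) without the library that stood apart.

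The surrogate light chain genes had the fewest counts of the 9 and the widest relative spread over naive libraries. Vpreb1 was at 5.13, 6.78 and 2.96 CPM in injured knees at day 7, and its naive libraries ranged from 1.68 to 6.63 CPM with a median of 3.32 CPM. In the contralateral knees it was at 12.8, 6.11 and 4.06 CPM, the first of these being the library that stood apart. Igll1 was at 8.99, 7.67 and 6.15 CPM in injured and 14.6, 8.56 and 7.57 CPM in contralateral knees, with a naive range of 3.15 to 11.2 CPM and a median of 6.25 CPM. No change of either gene passed. Against contralateral knees the log2 fold change was -0.61 for Vpreb1 and -0.41 for Igll1 (edgeR FDR 0.401 and 0.476), and -0.02 and -0.06 (edgeR FDR 0.989 and 0.944) without that library. The largest change, Vpreb1 in contralateral day 7 against naive knees, was 0.99 ± 0.39 (edgeR FDR 0.265) and became 0.43 (edgeR FDR 0.946) without that 1 library.

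The counts behind Vpreb1 were low, from 48 to 186 per library, and could be shared with a near copy. The coding sequences of Vpreb1 and Vpreb2 differed at 9 of 426 bases, and 368 of the 736 stretches of 31 bases in the main Vpreb1 transcript, the stretch by which kallisto assigns reads by default, also occurred in Vpreb2. The part of the coding sequence that holds 5 of the differences, bases 328 to 387 of each, is shown 5′ to 3′ from the GENCODE transcripts with the differing bases in capitals:
Vpreb1: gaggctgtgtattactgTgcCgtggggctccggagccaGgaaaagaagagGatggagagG
Vpreb2: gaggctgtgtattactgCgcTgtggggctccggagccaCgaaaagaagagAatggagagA
Vpreb2 was called higher in injured knees at day 7 than in naive knees (log2 fold change 1.25 ± 0.35, edgeR FDR 0.0149). Its level was 1.41, 0.824 and 0.648 CPM in injured and 0.148 to 0.587 CPM in naive libraries, and its counts were at most 31 in any library. Without replicate 1 of the injured knees its change against naive knees was 0.85 (edgeR FDR 0.139). The contralateral knees at day 7, at 0.406 to 1.56 CPM, spanned the injured ones. Against them the change was -0.01 (edgeR FDR 0.992), and 0.40 (edgeR FDR 0.639) without the library that stood apart. The estimates of both genes are therefore uncertain.

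**Figure D3:**
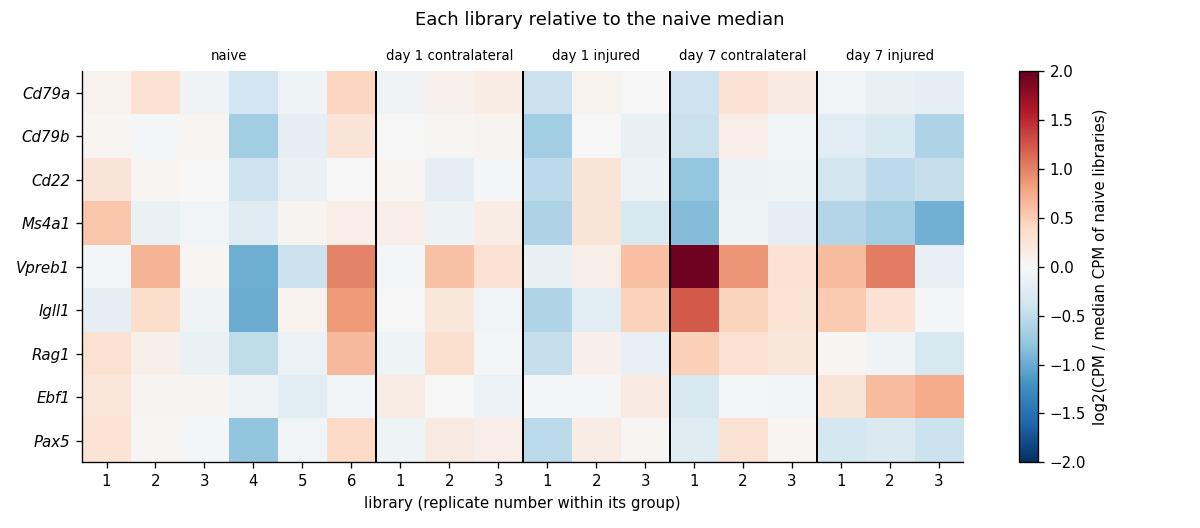
Level of each gene (rows) in each library (columns, replicate number within its group) as log2 of CPM over the naive median, from -2 (blue) to 2 (red). Ms4a1 is low in all 3 day 7 injured libraries, Ebf1 is high in the same libraries, and Vpreb1 and Igll1 are highest in replicate 1 of the day 7 contralateral knees.

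The ratio of Vpreb1 to Ms4a1 counts set an early against a late gene within a library, so that scaling between libraries plays no part in it. Its median was 0.132 in naive libraries (range 0.0891 to 0.270), 0.163 and 0.205 in contralateral and injured knees at day 1, 0.288 in contralateral and 0.345 in injured knees at day 7. The injured day 7 libraries ranged from 0.258 to 0.491 and overlapped the upper end of the naive range. The highest ratio, 1.04, was in the contralateral library that stood apart. The ratio of Igll1 to Ms4a1 was 0.536 to 0.604 in injured knees at day 7, above the naive range of 0.166 to 0.458. It reached 0.478 in injured knees at day 1, and the contralateral knees at day 7, at 0.384 to 1.18, spanned the injured ones. These ratios are given as descriptions.

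**Figure D4:**
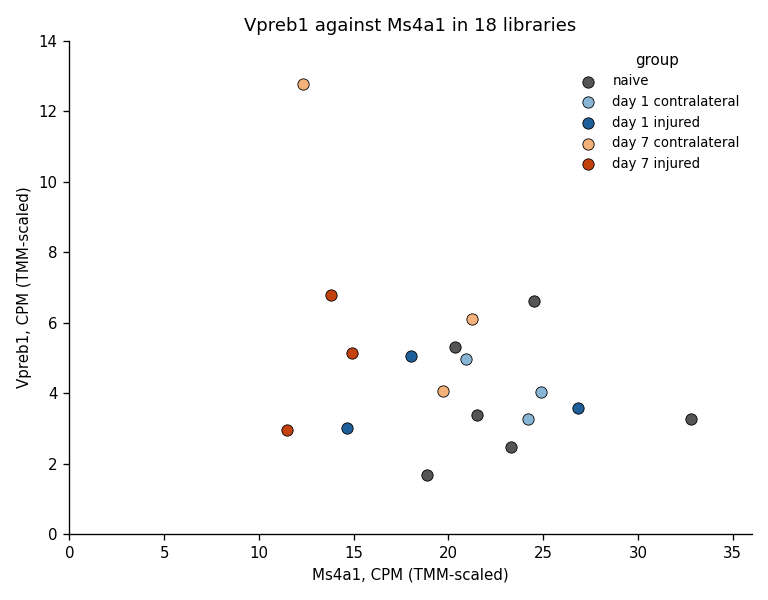
Vpreb1 (y axis, CPM) against Ms4a1 (x axis, CPM) in the 18 libraries, coloured by group. The 3 day 7 injured libraries lie at the low end of Ms4a1, between 11.5 and 14.9 CPM, and 1 day 7 contralateral library lies apart at 12.8 CPM of Vpreb1.

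At day 1 none of the 9 genes was called in injured knees, against naive or contralateral knees. Their log2 fold changes lay between -0.25 and 0.04 against naive knees and between -0.29 and 0.03 against contralateral knees. No gene of 21129 was called in either comparison, with 959 and 1383 genes at an unadjusted p under 0.05 by edgeR. The contralateral knees did not differ from naive knees by any call either, for the 9 genes or for all genes, with 554 genes at day 1 and 3220 at day 7 at an unadjusted p under 0.05. Limma-voom likewise called none of the 9 in these 4 comparisons. DESeq2 called none in 3 of them, and in injured against naive knees at day 1 its independent filtering left all 9 without an adjusted p. Over all genes limma-voom called 0 in each, and DESeq2 called 15 lower in injured against naive knees at day 1, 0 in injured against contralateral knees at day 1, 1 higher and 1 lower in contralateral against naive knees at day 1, and 18 higher and 13 lower in contralateral against naive knees at day 7.

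A wider list of 37 B-lineage genes was read beside the 9. Against naive knees 3 of the 37 were called lower in injured knees at day 7 and 1, Vpreb2, higher, and 32 of 37 had values below 0, with a median log2 fold change of -0.27. Over all genes 6.11% were called lower, 53.4% were below 0 and the median was -0.04. The 3 called lower were Cr2 (complement receptor 2, -1.24 ± 0.25, edgeR FDR 0.00186), Fcrl1 (an Fc receptor-like protein, -0.64 ± 0.19, edgeR FDR 0.0206) and Fcer2a (CD23, -0.61 ± 0.22, edgeR FDR 0.0459). With offsets for transcript length Cr2 was not called (-0.79, edgeR FDR 0.209). Cr2 was at 2.18, 1.90 and 2.22 CPM in injured and 3.60 to 8.001 CPM in naive libraries, with no overlap. It was at 1.87, 3.48 and 2.97 CPM in contralateral knees at day 7, also below every naive library, and the change against these knees was -0.42 ± 0.30 (edgeR FDR 0.368). Fcer2a was close to the threshold and lost its call in 11 of 22 alternatives, and Fcrl1 lost its call in 4. Fcer2a was below every naive library in the contralateral knees at day 7 too, and the change against these knees was -0.02 ± 0.24 (edgeR FDR 0.967). With naive replicate 1 or 2, or injured replicate 2 or 3, left out, only 1 of the 37 was called lower. Calls over all genes in these fits are not given beside this count. The other 33 genes were not called. Of these, Irf8, Cd37, Ptprc, Ikzf1, Btk, Cd24a and Bank1 were lower by the FDR alone (edgeR FDR 0.0043 to 0.0431). Their log2 fold changes, from -0.46 to -0.28, were under the fold limit. The share of all genes lower by the FDR alone is not given here. Among the 33, genes of early B cells had log2 fold changes of -0.13 for Rag2, 0.12 for Dntt, 0.01 for Vpreb3 and -0.26 for Il7r, and genes of mature B cells -0.23 for Cxcr5, -0.11 for Cd72, -0.35 for Tnfrsf13c and -0.44 for Fcmr. No difference between early and mature genes was tested.

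Against contralateral knees at day 7, 3 of the 37 were called lower and none higher, 34 of 37 had values below 0, and the median was -0.36. Over all genes 3.23% were called lower, 54.3% were below 0 and the median was -0.05. The 3 were Fcrl1 (-0.74 ± 0.21, edgeR FDR 0.0198), Irf8 (a transcription factor of B and myeloid cells, -0.75 ± 0.14, edgeR FDR 0.00111) and Cd37 (a tetraspanin of leukocytes, -0.60 ± 0.11, edgeR FDR 0.00113). Irf8 was at 83.3, 75.6 and 67.5 CPM in injured and 157, 116 and 108 CPM in contralateral knees. Without the library that stood apart only Fcrl1 kept its call, and Irf8 (-0.55) and Cd37 (-0.50) came under the fold limit. The number called lower was 1 without this library or without injured replicate 2 or 3, 5 without contralateral replicate 2 or injured replicate 1, and 9 without contralateral replicate 3. The share of all genes called in these fits is not set beside them, so they describe the dependence on single libraries only. Marrow markers were called lower in the same comparison, 5 of 16 neutrophil and marrow myeloid genes (median -0.60) and 6 of 13 erythroid genes (median -0.63). Of 9 stem cell and megakaryocyte genes 4 were called lower and 1, Cd34, higher (0.81, edgeR FDR 0.00256), with a median of -0.58. Of T and NK cell genes 0 of 17 were called (median -0.46). The part of these markers in the values of the 37 genes was not tested.

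**Figure D5:**
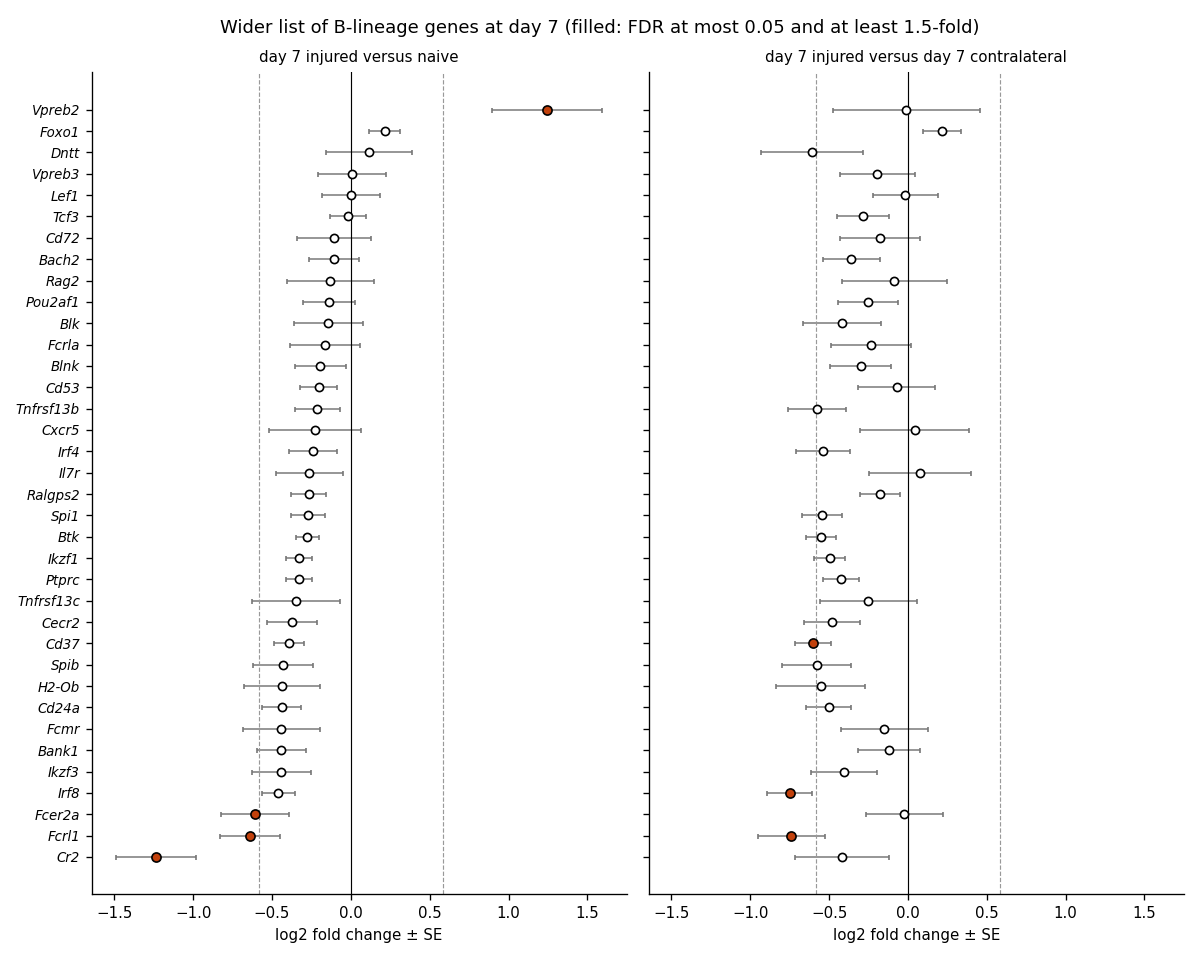
Log2 fold change (x axes, with bars of 1 SE) of further B-lineage genes (rows, all but 1 of the wider list, in the order of their change against naive knees) in injured knees at day 7, against naive knees (left) and contralateral knees (right). Filled points are called, Vpreb2 (1.25), Cr2 (-1.24), Fcrl1 (-0.64) and Fcer2a (-0.61) on the left and Irf8 (-0.75), Fcrl1 (-0.74) and Cd37 (-0.60) on the right, and most other values lie below 0.

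Genes of the immunoglobulin constant regions and the J chain, which mark B cells and plasma cells, were not called against naive knees (0 of 12, median log2 fold change -0.36). Against the contralateral knees Igha alone was called lower (-0.74 ± 0.21, edgeR FDR 0.0178), and it was not called without the library that stood apart (-0.43, edgeR FDR 0.127), where Ighm was called lower in its place. Ighm is named after its values were seen. Igkc, the most abundant of them by TPM, was at 68.1, 94.2 and 120 CPM in injured and 91.8 to 206 CPM in naive libraries. Of 6 plasma cell genes tested 1 was called higher against naive knees, Sdc1 (1.84 ± 0.25, edgeR FDR 5.58e-05), which epithelial and mesenchymal cells also express, and the group median was 0.03. Over all genes 10.4% were called higher and 6.11% lower against naive knees, and 3.23% lower against contralateral knees.

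Some markers of marrow cells were called lower in the same libraries. Over all genes 6.11% were called lower and 10.4% higher at day 7 against naive knees, with a median of -0.04. In injured knees at day 7 against naive knees 6 of 13 erythroid genes were called lower (median -0.60), as were 2 of 16 neutrophil and marrow myeloid genes (median -0.35) and 3 of 9 stem cell and megakaryocyte genes, with Cd34, which is also in the fibroblast list, higher (median -0.54). Their summed levels were 21288 TPM against 38238 TPM for erythroid genes and 6540 TPM against 11310 TPM for myeloid genes, as medians. The 9 B-lineage genes summed to 51.2 TPM against 67.7 TPM. TPM sums are shares of each library, carry the shift in composition that TMM removes, and can be held mostly by 1 gene. Macrophage genes summed to 838 TPM against 1053 TPM, led by Lyz2 at medians of 629 and 847 TPM. Of the 10 macrophage genes tested 8 had TMM-scaled changes above 0. The source of this difference was not tested. Among adipocyte genes 5 of 10 were called lower (median -1.27). No T and NK cell gene was called (0 of 17, median -0.09), nor was any of 10 macrophage genes tested (median 0.33). Muscle genes had 1 of 11 called lower, osteoblast and osteocyte genes 1 of 10 higher and 2 lower, osteoclast genes 1 of 8 higher, and chondrocyte genes 4 of 12 higher and 2 lower. No marker of these lists was at or under 3 counts in all libraries. The part of these marker levels in the lower Ms4a1 and Cr2 was not tested.

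Many of the genes varied together across libraries. The 28 pairs without Ebf1 had a median Pearson's r of 0.65 over 18 libraries, and 0.66 with groups centred, and the highest were Cd79b with Pax5 (0.93), Ms4a1 with Cd22 (0.91) and Vpreb1 with Igll1 (0.90). The 8 pairs with Ebf1 had a median of -0.16, which turned to 0.21 with groups centred. Vpreb1 and Igll1 with Ms4a1 and Cd22 had a median r of -0.25 over the 4 pairs and 0.03 without the library that stood apart. These points share depth, scaling, groups and in part mice, and are given as descriptions.

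The genes whose pattern was most like the mean of Cd79a and Cd79b, among 15510 protein-coding genes, included Cd2 (r = 0.96), Pax5 (0.92), Pou2af1 (0.92), Fcrla (0.91), Arl5c (0.89), Rasgrp1 (0.89), Abcg3 (0.89), Cenpn (0.86) and Gimap3 (0.83), all among the first 10. Without the library that stood apart 5 of the first 10 stayed among the first 10. The genes most like Ebf1 were Erlec1 (0.94), Polk (0.93), Ehbp1 (0.93), Cxxc5 (0.93) and Naaladl2 (0.93), of which 2 stayed among the first 5 without that library and 1 without naive replicate 4. Pearson's r over 18 libraries was the measure in both cases.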

How the data were processed

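RNA was sequenced from 18 pooled cartilage libraries (stranded total RNA, ribosomal RNA removed). Per the labels and the study's methods, the authors trimmed reads and quantified transcripts with kallisto; the deposited files hold estimated counts, TPM values and effective lengths per transcript. The labels name GRCh38, whereas the methods name a mouse build and the transcript identifiers are of mouse. The methods also state that 1 library with low mapping was removed.

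Transcript identifiers without version were matched to GENCODE vM21 (GRCm38): 135107 of 137436 matched (98.3%), and estimated counts were summed per gene and rounded. The unmatched transcripts held 0.667% to 3.90% of counts. The main test was edgeR 4.0.16 (filterByExpr with a minimum count of 10, TMM, quasi-likelihood F test, Benjamini-Hochberg FDR over all genes tested). The threshold was that of the study, FDR 0.05 and a change of 1.5-fold. The fit used 15 libraries where no day 7 contralateral knee was compared, and 18 otherwise. Sharing of mice between libraries, which the study's limma-voom fit modelled as a correlation, was not modelled. Correlations used log2(CPM + 0.5). Alternatives were other scalings, no filter, DESeq2 1.42.0, limma-voom (limma 3.58.1), length offsets, other thresholds and each library left out. The scripts were tested on simulated data.

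The members, the 17 marker lists and the rule for genes of like pattern were chosen with earlier results of these data known. Named genes are the 9 members, the called or role-defining genes of the wider B-lineage, immunoglobulin and Ebf lists, and the genes most like Cd79a with Cd79b (10) and Ebf1 (5) in pattern. Faim3 in the wider list and 1 erythroid symbol matched no gene. Replicates are separate pools, numbered in accession order; no 2 libraries of a group agreed within sampling noise. P-values measure the spread between pools, and for naive knees these include pools of left and right knees of the same mice. The n of a group therefore counts libraries and not independent sets of mice. Ms4a1, Ebf1, Pax5 and Cd22 overlap antisense genes, and whether counting used strand is not given in the sources used here. A few genes that this rule names are not reported here.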

Additional observations from a re-analysis of the deposited data

How the results depend on the processing

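Ms4a1 was called lower in day 7 injured against naive knees in all 22 alternatives, with log2 fold changes from -1.12 to -0.68 and an FDR of at most 0.0448, the highest without replicate 3 of the injured knees. Library totals alone moved the median of all genes in that comparison to -0.35, and the count of members called rose from 1 to 4 (Ms4a1, Cd79b, Pax5 and Cd22, all lower); relative to that shift Cd79b, Pax5 and Cd22 changed by less than 1.5-fold, and 4556 of all 21129 genes were called lower. The same scaling called 0 members against day 7 contralateral knees (Ebf1 0.51, FDR 0.0780, with all genes shifted by -0.19) and 3 lower (Ms4a1, Pax5 and Cd22) for injured knees at day 7 against day 1, where all genes shifted by -0.45 and 6042 were called lower. With no fold limit 2 members were called against naive knees and 1 between days, in each case adding Ebf1. Length offsets called 0 members against contralateral knees. DESeq2 called 1 member, Ebf1, in the difference of injury effects between days (0.63, FDR 0.0334). With 1 library left out the members called ranged from 1 to 2 against naive knees (2 without naive replicate 1 or injured replicate 1), from 0 to 1 against contralateral knees (0 without injured replicate 3), from 0 to 1 between days (1 without day 1 injured replicate 1 or 3 or day 7 injured replicate 1) and from 0 to 1 for the difference of effects (1, Ebf1, without day 7 injured replicate 1). In the other 4 comparisons no alternative called any member, and DESeq2 gave the members no adjusted p in day 1 injured against naive knees. The cause of these differences was not tested beyond the settings themselves. For fits with 1 library left out the share of all genes called is not given beside these counts. Of 1638 member values under alternatives 108 changed sign, none of them called in either fit. In the wider list the genes called lower ranged from 1 to 17 against naive knees and from 1 to 11 against contralateral knees (3 in both as reported; these alternatives were added after seeing the data), the highest with library totals alone, where 4556 of 21129 and 1305 of 21262 genes in all were called lower. Summing Vpreb1 and Vpreb2 changed no call on the 9 members. By Spearman correlation 6 of the 10 genes most like Cd79a and Cd79b, and 1 of the 5 most like Ebf1, stayed. No paired analysis was possible because the labels do not say which libraries came from the same mice. The SE of the log2 change against naive knees was 0.36 for Vpreb1 and 0.30 for Igll1, the members with the fewest counts, against 0.19 for Ms4a1.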
